A study of Homo sapiens with 6 samples.

Results

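This account concerns 10 genes of the NRF2 antioxidant pathway in human cells labelled as a colorectal cancer line: NFE2L2, which encodes the transcription factor NRF2, its inhibitor gene KEAP1, and the antioxidant target genes NQO1, HMOX1, GCLC, GCLM, TXNRD1, SRXN1, SLC7A11 and TXN. They were chosen by name as known members of the pathway, and all 10 are among the 56638 gene symbols of the count tables. Messenger RNA was sequenced from cells labelled HT29, an established colorectal adenocarcinoma line, in 3 libraries after a nonspecific control siRNA, labelled wild type and control, and in 3 after an siRNA against RNF6, labelled RNF6 knockdown. RNF6 is a RING-type ubiquitin ligase gene, and the series asks whether RNF6 acts on JAK/STAT3 signalling through SHP-1. Every library came from cells at passage 16 to 19 and from 1 µg of total RNA. The study used a single line, and the number of siRNAs and the time to harvest are not stated in the labels. No label calls the replicates separate cultures. The p-values therefore cover the spread between libraries alone, and that spread may be technical. In a bulk library, fewer cells that make a transcript and less transcript per cell cannot be told apart.

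NRF2 is a bZIP transcription factor that pairs with small MAF proteins on antioxidant response elements in the promoters of its targets. In unstressed cells KEAP1, a cysteine-rich adaptor of the CUL3 ubiquitin ligase, binds NRF2 and has it degraded, and oxidants or electrophiles that modify KEAP1 let NRF2 accumulate. The level of NRF2 protein is therefore set largely after transcription, and a count of NFE2L2 transcripts does not report it. Protein was not measured in these libraries. In the intestine the pathway is known for the defence against oxidants and xenobiotics.

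The antioxidant response element was looked for in the promoters because the members did not all move the same way. Its core was searched as TGACNNNGC on both strands of RefSeq windows of 300 bases (GRCh38.p14, 250 bases before to 50 after a start), and the letters can overlap an AP-1 site. Of the 10 genes, 8 had a window, and 3 of these held the core, in 4 of 11 windows. The search did not reach beyond these windows, so a gene without a match may hold the core elsewhere. HMOX1 and SLC7A11 had no entry. Over all 35116 promoter windows the core was present in 13.3%. The 5 matches that lie before a start are shown in the direction of the gene, with the core in capitals, because the same 9 letters stand in a gene that was higher and in a gene that was lower after RNF6 siRNA.
GCLM, chr1:93909446-93909474, minus strand: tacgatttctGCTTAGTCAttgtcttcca
KEAP1, chr19:10502784-10502812, minus strand: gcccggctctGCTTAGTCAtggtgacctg
KEAP1, chr19:10502807-10502835, minus strand: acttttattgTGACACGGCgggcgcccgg
TXNRD1, chr12:104286920-104286948, plus strand: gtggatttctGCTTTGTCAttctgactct
TXNRD1, chr12:104215670-104215698, plus strand: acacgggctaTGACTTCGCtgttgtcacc

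The core of GCLM and the nearer core of KEAP1 are both the reverse complement of TGACTAAGC, which is present in 36 of the 35116 windows (0.103%). The other forms of the core shown above were in 0.0797% to 0.313% of the windows. All were picked because they were found here, so a low share gives the match no weight. The shared core ends 26 bases before the start of GCLM and 23 bases before the downstream of the 2 annotated starts of KEAP1. In GENCODE 29, which annotates the same build, these stretches and that of the downstream TXNRD1 start overlap annotated exons of the same gene. The stretch at the upstream TXNRD1 start lies in no annotated exon. The core was present in 13.4% of the windows of genes called higher, 14.5% of those called lower and 14.6% of those not called. A match describes letters, not a bound site.

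RNF6 itself was lower in every RNF6 siRNA library, at 16.5 ± 0.313 against 52.3 ± 6.48 CPM (counts scaled to the gene reads of the library, SD, n = 3), a 3.17-fold difference. Gene counts summed to between 6808771 and 11071456 reads per library, and the TMM factors that scaled the libraries lay between 0.985 and 1.02. The epithelial markers EPCAM, CDH1, KRT8, KRT18, KRT19 and CDX2 were expressed, with KRT8 the most abundant, but KRT20 was below 3 CPM in every library, and VIL1 and CEACAM5 were below 1 CPM in every library. Transcripts of 2 genes known from colon epithelium, GPX2 and NOX1, singled out after their values were seen, averaged 0.40 and 0.21 CPM in control and 0.52 and 0.29 CPM in RNF6 siRNA libraries. Because of these near-absent transcripts, the identity of the line was not settled by its markers and rests on the labels. Of the 7 markers of this list that could be tested, 4 were lower after RNF6 siRNA and 0 higher. Over all 14685 tested genes, 16.1% were lower and 16.6% higher. The summed level of all 9 markers was 4338 to 5637 CPM in control and 2437 to 2821 CPM in RNF6 siRNA libraries. The part of that shift in the results below was not tested. The list of blood cell markers (6 genes) and that of endothelium markers (5 genes, led by VWF) each summed to less than 3 CPM in every library. CD68 and PECAM1 had 0 reads, and VWF was lower after RNF6 siRNA (adjusted p = 0.0283). Of the 7 fibroblast markers only COL1A1 had more than 2 CPM on average, and their sum was 49.9 to 65.2 CPM in control and 69.9 to 84.6 CPM in RNF6 siRNA libraries. COL1A1 was higher in all 3 RNF6 siRNA libraries (1.33-fold, adjusted p = 0.0197), and its part in the results was not tested.

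Of the 10 genes, 9 had enough reads to be tested. After RNF6 siRNA, NQO1, GCLM and SLC7A11 were higher, KEAP1, HMOX1 and TXN were lower, and NFE2L2, GCLC and TXNRD1 did not pass an adjusted p of 0.05, which is the threshold for a call throughout. Thus 3 of 9 were called higher, where 16.6% of all 14685 tested genes were, and 3 of 9 lower, where 16.1% of all genes were. For 6 of the 9 all libraries of a group lay above all of the other, so without overlap, against 44.2% of all tested genes. The median log2 fold change of the 9 was −0.13, and that of all tested genes 0.01. With 9 genes these shares are a description, and the calls on KEAP1 and HMOX1 were the ones that held under each of 13 alternative analyses.

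**Figure D1:**
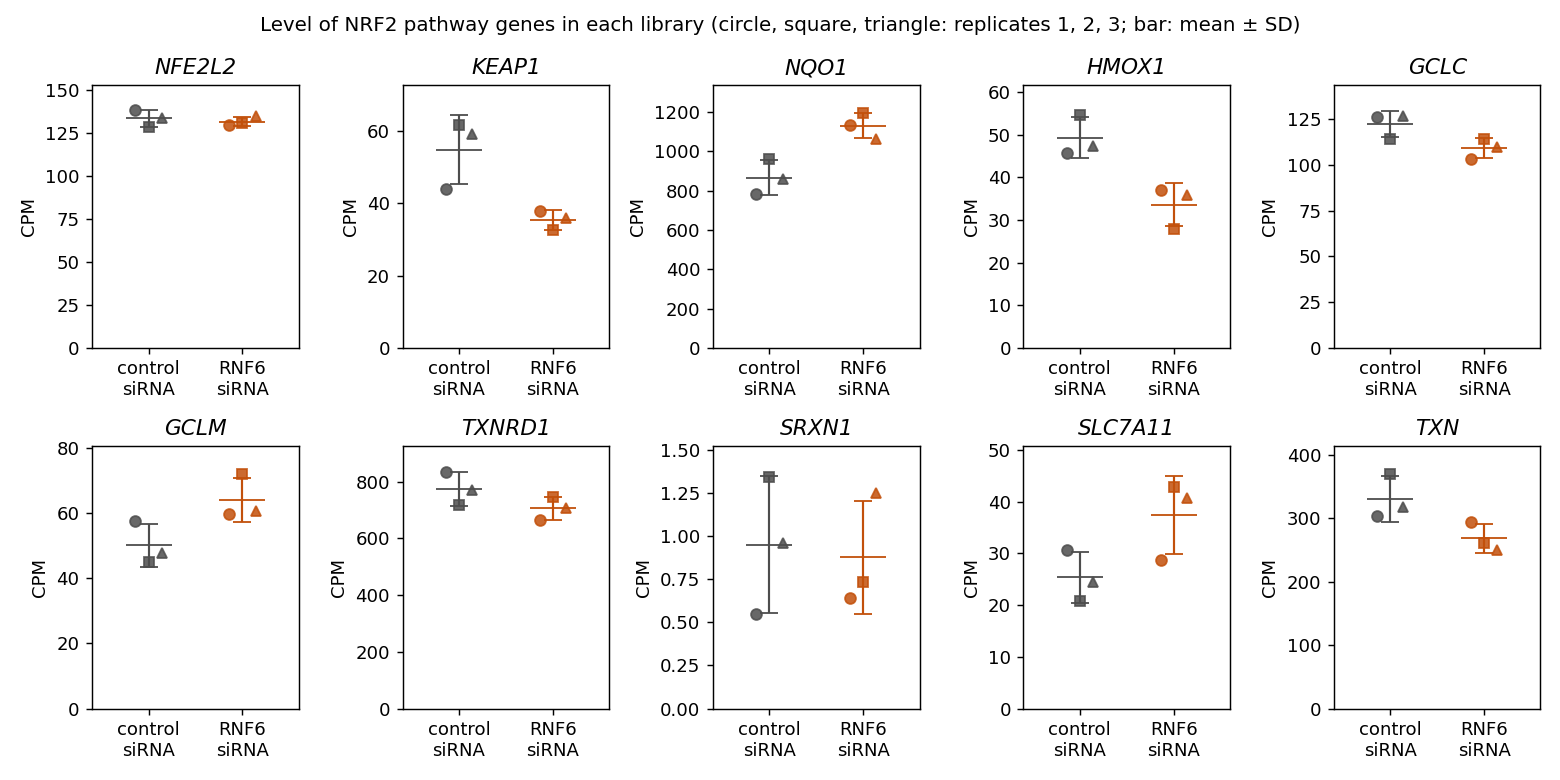
CPM of each of the 10 genes (vertical axes from 0, each gene on its own scale) in the control siRNA and RNF6 siRNA libraries, with the mean and SD of 3 libraries per group. KEAP1 and HMOX1 were lower in all 3 RNF6 siRNA libraries, NQO1 and GCLM were higher in all 3, and the NFE2L2 libraries of the groups overlapped.

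The regulators come first. NFE2L2 stood at 138, 128 and 133.5 CPM in control libraries 1 to 3 and at 129, 130.4 and 134 CPM with RNF6 siRNA. The libraries of the groups were interleaved, and the spread over all 6 was small. The log2 fold change was −0.02 (SE 0.0917, adjusted p = 0.884), with a 95% interval from −0.22 to 0.18, and over the 13 alternatives it ran from −0.05 to −0.00307. No change of NFE2L2 was thus detected. The interval still holds small changes in either direction, so the level was not shown to be the same.

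KEAP1 stood at 43.9, 61.7 and 59.2 CPM in control libraries 1 to 3 and at 38.0, 32.5 and 36.1 CPM with RNF6 siRNA. Every RNF6 siRNA library was below every control library, with control library 1 the nearest. The means were 55.0 ± 9.66 and 35.5 ± 2.77 CPM (SD, n = 3), so that KEAP1 fell 1.55-fold (log2 fold change −0.63, SE 0.136, adjusted p = 0.00366). The call held in all 13 alternatives, with adjusted p from 6.15e-06 to 0.0332.

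The NFE2L2 reads per KEAP1 read were higher in every RNF6 siRNA library. The ratio was 3.15, 2.08 and 2.25 in control libraries 1 to 3 and 3.41, 4.01 and 3.72 with RNF6 siRNA. A ratio within a library does not depend on how libraries are scaled. The ratio was 1.51-fold higher (two-sided exact permutation p = 0.1, the smallest that 3 against 3 allows; 0.133 adjusted over 4 ratios, which were chosen after the values were seen).

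NQO1 encodes a quinone reductase that uses NADH or NADPH and is among the most used readouts of NRF2 activity. It stood at 781, 959.5 and 859 CPM in control libraries 1 to 3 and at 1136, 1193 and 1065 CPM with RNF6 siRNA. All 3 RNF6 siRNA libraries were above the highest control library. The means were 867 ± 89.4 and 1131 ± 63.9 CPM, a 1.31-fold rise (log2 fold change 0.38, SE 0.103, adjusted p = 0.0125). Leaving out control library 3 (adjusted p = 0.0717) or RNF6 siRNA library 2 (0.0594) removed the call, and the alternatives gave adjusted p from 0.00253 to 0.0717.

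HMOX1 encodes haem oxygenase-1, which opens the haem ring to give biliverdin, iron and carbon monoxide, and which BACH1 represses as well as NRF2 induces. It stood at 45.7, 54.7 and 47.3 CPM in control libraries 1 to 3 and at 37.0, 27.8 and 35.9 CPM with RNF6 siRNA. The groups did not overlap, and the direction was opposite to that of NQO1. The means were 49.2 ± 4.80 and 33.6 ± 5.04 CPM, so that HMOX1 fell 1.46-fold (log2 fold change −0.54, SE 0.130, adjusted p = 0.00679). Adjusted p stayed between 3.07e-04 and 0.0481 over the 13 alternatives.

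These targets were also compared within each library. NQO1 had 17.1, 17.5 and 18.2 reads per HMOX1 read in control libraries 1 to 3 and 30.7, 42.9 and 29.6 with RNF6 siRNA. The control libraries lay close together and all 3 RNF6 siRNA libraries were higher, by 1.93-fold on average (two-sided exact permutation p = 0.1, the smallest possible; 0.133 adjusted over the 4 ratios).

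Glutathione synthesis starts with glutamate-cysteine ligase, a pair of a catalytic subunit, GCLC, and a modifier subunit, GCLM, and it depends on cystine that the SLC7A11 transporter brings in. GCLC stood at 126.5, 114.5 and 127 CPM in control libraries 1 to 3 and at 104, 114 and 109.7 CPM with RNF6 siRNA. Control library 2 and RNF6 siRNA library 2 all but touched, and the difference did not pass the test (log2 fold change −0.17, SE 0.0974, adjusted p = 0.210, 95% interval −0.38 to 0.04). No alternative gave a call, and adjusted p ran from 0.158 to 0.443.

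GCLM stood at 57.6, 45.1 and 47.8 CPM in control libraries 1 to 3 and at 59.7, 71.9 and 60.7 CPM with RNF6 siRNA. The groups did not overlap, but control library 1 and RNF6 siRNA library 1 were close. The means were 50.1 ± 6.59 and 64.1 ± 6.81 CPM, a 1.28-fold rise (log2 fold change 0.35, SE 0.124, adjusted p = 0.0431). This was the smallest of the 3 rises. It was no longer called once control library 2 (adjusted p = 0.1225) or 3 (0.183) or RNF6 siRNA library 2 (0.1635) or 3 (0.0923) was removed. Fits with no scaling factor (0.05401), by DESeq2 (0.0602) and with replicate number as a block (0.142) did not call it either. The alternatives gave adjusted p from 0.00411 to 0.183.

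The subunits were set against each other in each library. There were 0.456, 0.394 and 0.377 GCLM reads per GCLC read in control libraries 1 to 3 and 0.576, 0.629 and 0.553 with RNF6 siRNA. This ratio was higher in every RNF6 siRNA library than in any control library, 1.44-fold on average (two-sided exact permutation p = 0.1, the smallest possible; 0.133 adjusted over the 4 ratios).

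SLC7A11, the light chain of the cystine-glutamate exchanger, stood at 30.7, 20.9 and 24.6 CPM in control libraries 1 to 3 and at 28.8, 42.8 and 40.7 CPM with RNF6 siRNA. The groups overlapped, since RNF6 siRNA library 1 lay below control library 1. The means were 25.4 ± 4.98 and 37.4 ± 7.56 CPM, a 1.47-fold rise (log2 fold change 0.56, SE 0.1705, adjusted p = 0.0235). Removing control library 3 (adjusted p = 0.0932) or RNF6 siRNA library 2 (0.104) or 3 (0.115) ended it. So did replicate number as a block (0.0958), and the alternatives gave adjusted p from 5.05e-04 to 0.115. SLC3A2, which encodes the heavy chain that carries SLC7A11 to the cell surface, went the other way, from 237 ± 31.2 to 146 ± 13.5 CPM (1.62-fold lower, adjusted p = 6.08e-04).

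The thioredoxin arm reduces protein disulfides and peroxiredoxins. TXN, cytosolic thioredoxin, stood at 303, 371 and 318 CPM in control libraries 1 to 3 and at 294, 262 and 249.5 CPM with RNF6 siRNA. All 3 RNF6 siRNA libraries were below the lowest control library, but RNF6 siRNA library 1 only just. The means were 331 ± 35.6 and 269 ± 23.1 CPM, so that TXN fell 1.23-fold (log2 fold change −0.30, SE 0.106, adjusted p = 0.0453). Once control library 2 (adjusted p = 0.149) or 3 (0.0948) or RNF6 siRNA library 2 (0.125) or 3 (0.176) was removed TXN was not called. Upper-quartile scaling (0.0645) and replicate number as a block (0.142) did not call it either. The alternatives gave adjusted p from 0.00729 to 0.176. TXN has processed pseudogenes, so its level is uncertain.

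TXNRD1, the NADPH-dependent selenoenzyme that recharges thioredoxin, stood at 834, 716 and 771 CPM in control libraries 1 to 3 and at 665, 744 and 707 CPM with RNF6 siRNA. The groups overlapped, and the test gave no call (log2 fold change −0.13, SE 0.0974, adjusted p = 0.324, 95% interval −0.34 to 0.08). The reads of TXNRD1 per read of TXN overlapped too, from 1.93 to 2.75 in control and 2.26 to 2.84 in RNF6 siRNA libraries (two-sided exact permutation p = 0.5, also 0.5 adjusted over the 4 ratios).

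**Figure D2:**
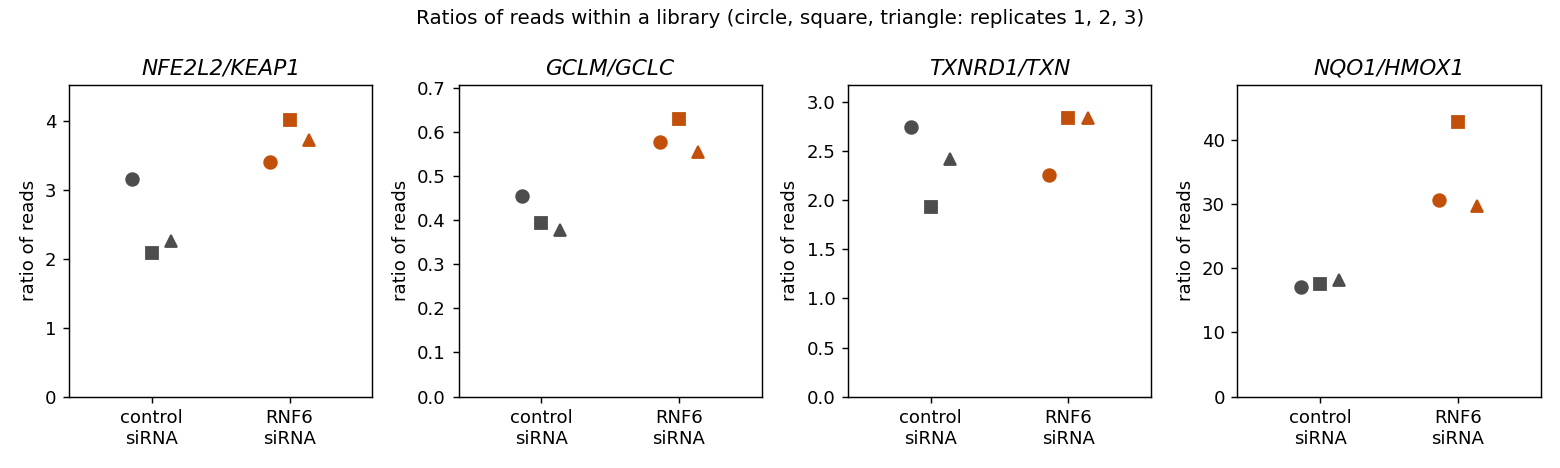
Ratios of reads of gene pairs within each library (vertical axes from 0), with 3 libraries per group. The NFE2L2/KEAP1, GCLM/GCLC and NQO1/HMOX1 ratios were higher in all 3 RNF6 siRNA libraries than in any control library, and the TXNRD1/TXN ratios overlapped.

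SRXN1, sulfiredoxin, which repairs overoxidised peroxiredoxins, could not be judged. It had 4, 12 and 9 reads in control libraries 1 to 3 and 7, 5 and 14 with RNF6 siRNA, or 0.549 to 1.34 and 0.642 to 1.25 CPM. These counts are too low for the filter, and without it the adjusted p was 0.908. In GENCODE 29, 85.0% of its exon bases lie under exons of another gene on the same strand, and whether the annotation used for counting held that gene was not tested.

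**Figure D3:**
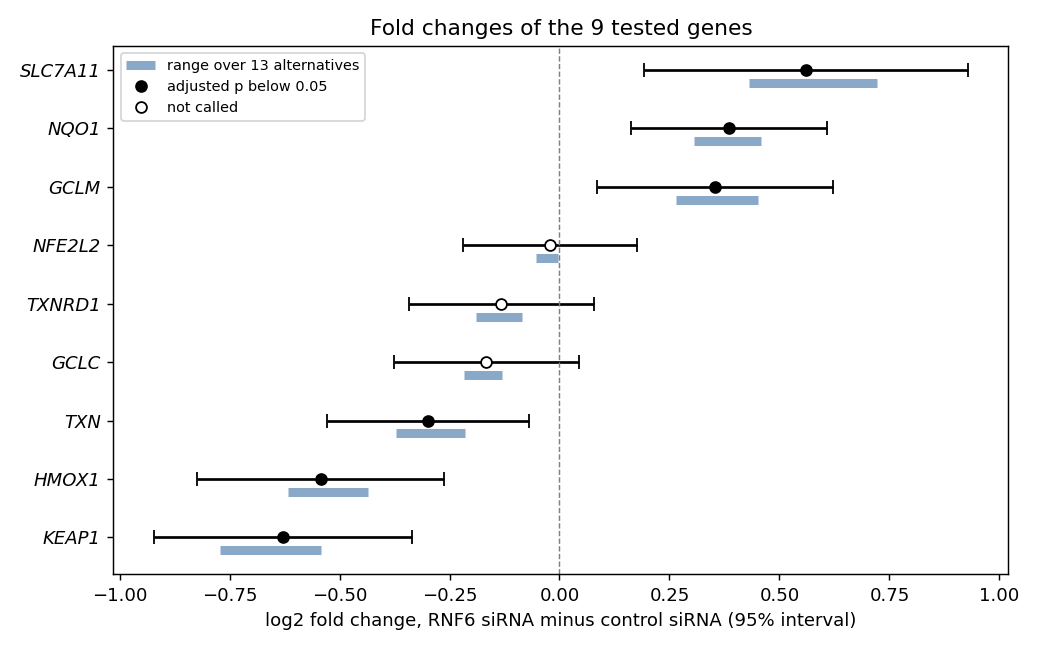
Log2 fold change (RNF6 siRNA minus control siRNA, horizontal axis) of the 9 tested genes with 95% intervals, filled where the adjusted p was below 0.05, and the range over 13 alternative analyses as a bar. The values run from −0.63 for KEAP1 to 0.56 for SLC7A11, and no range over the alternatives crosses 0.

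Levels between genes can be compared only per length, so CPM were also divided by the exon length of each gene in GENCODE 29. That is another build than that of the counts. The length joins the exons of all annotated transcripts of a gene, and which transcripts the cells made was not tested. The order of genes at near levels therefore depends on the annotation as well as on the spread given. In control libraries TXN had 289 ± 31.2 and NQO1 266 ± 27.5 CPM per kilobase, and their libraries overlapped. TXNRD1 was next at 115 ± 8.78 CPM per kilobase, above every gene that follows. NFE2L2 (22.3 ± 0.828) and HMOX1 (20.5 ± 2) could not be told apart by their spread, nor could KEAP1 (14.6 ± 2.57) and GCLC (14.2 ± 0.805). GCLM (9.25 ± 1.22) and then SLC7A11 (2.63 ± 0.516) were lower, without overlap with the gene above.

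With RNF6 siRNA, NQO1, at 348 ± 19.7 CPM per kilobase, stood above TXN, at 235 ± 20.3, in all 3 libraries. HMOX1 (14 ± 2.1), GCLC (12.6 ± 0.621) and GCLM (11.8 ± 1.26) formed a group of overlapping levels. By these exon lengths KEAP1, at 9.45 ± 0.735 CPM per kilobase, came below all of them, with SLC7A11 (3.88 ± 0.783) last of the 9 tested. Exons of other genes cover 20.9% of the NFE2L2 and 17.7% of the NQO1 exon bases, and the part of this overlap in their counts was not tested. For the rest of the tested genes it was below 10%.

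The pathway around these genes was read from lists drawn up by function. Over all 14685 tested genes, 16.1% were called lower and 16.6% higher, and the counts of each list are to be read beside these shares. The first list holds 19 genes of NRF2 turnover and partners, all tested, of which 3 were lower and 1 higher (median log2 fold change −0.18). BTRC and FBXW11, the F-box proteins that recognise NRF2 phosphorylated by GSK3 as a route of degradation apart from KEAP1, were lower 1.56-fold (adjusted p = 3.26e-04) and 1.57-fold (adjusted p = 4.84e-04). GSK3A was lower 1.39-fold (adjusted p = 0.0100), and AMER1 higher 1.43-fold (adjusted p = 0.0215). GSK3A was not called when RNF6 siRNA library 3 was removed (adjusted p = 0.0577), nor AMER1 when control library 2 or 3 or RNF6 siRNA library 3 was (up to 0.1075) or by DESeq2. Without control library 1, 6 genes of the list were lower.

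The partners of KEAP1 in the ligase did not pass. CUL3, the scaffold, had 152 ± 5.16 and 161 ± 8.87 CPM, and RBX1, the RING subunit, had 7.95 ± 0.948 and 6.53 ± 1.34 CPM. SQSTM1, the autophagy receptor that sequesters KEAP1, had 348 ± 33.0 and 298.7 ± 12.04 CPM (adjusted p = 0.103), and passed only without control library 1 (0.0168).

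Of 8 CNC, BACH and small MAF factors, 1 was higher and 1 lower (over all tested genes, 16.6% and 16.1%). NFE2L1, a relative of NRF2 that drives proteasome genes, rose 1.30-fold, from 124.9 ± 1.804 to 162 ± 10.9 CPM (adjusted p = 0.00910), and NFE2L3 was lower 1.27-fold (adjusted p = 0.0203). NFE2L1 lost its call when control library 3 or RNF6 siRNA library 3 was removed (adjusted p up to 0.0688), and NFE2L3 when any of these or RNF6 siRNA library 1 was (up to 0.0894). BACH1, the repressor of HMOX1, had 40.7 ± 7.85 and 39.7 ± 5.18 CPM (adjusted p = 0.882). The small MAF genes MAFF, MAFG and MAFK, whose products are the DNA-binding partners of NRF2, had log2 fold changes of −0.11, 0.17 and −0.04, none of which passed (adjusted p = 0.525, 0.183 and 0.830).

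Other reported NRF2 target genes were called in both directions, as were all tested genes (16.6% higher, 16.1% lower). Of 38 found in the count files, 35 were tested, and 8 were higher, 7 lower and 20 not called (median log2 fold change 0.04). Among those higher, ABCC2, an efflux pump for glutathione conjugates, rose 2.09-fold, from 95.8 ± 8.16 to 200.5 ± 16.9 CPM, and PIR, an iron-binding nuclear protein gene, rose 2.07-fold. ME1, the NADPH-forming malic enzyme, and TRIM16L rose 1.71-fold each. TRIM16L shares sequence with TRIM16, so its level is uncertain.

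Among those lower, MGST1, a microsomal glutathione transferase, fell 2.93-fold, from 62.1 ± 1.36 to 21.3 ± 2.08 CPM, and PGD, an NADPH-forming enzyme of the pentose phosphate pathway, fell 1.94-fold. The aldo-keto reductase genes AKR1B1 and AKR1C3 fell 1.46-fold and 1.61-fold. Leaving out RNF6 siRNA library 3 removed the AKR1C3 call (adjusted p = 0.0584). Without RNF6 siRNA library 1 or 2, and with DESeq2, 4 genes of the list were lower.

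In the glutathione list 27 of 35 genes were tested, and 9 were lower, 4 higher and 14 not called (median log2 fold change −0.33). The shares over all tested genes were 16.1% lower and 16.6% higher. GPX4, the peroxidase that reduces lipid hydroperoxides in membranes, fell 3.04-fold, from 300 ± 53.3 to 98.7 ± 13.3 CPM (adjusted p = 4.89e-06). The glutaredoxin genes GLRX2 and GLRX5 fell 1.67-fold and 1.31-fold, the latter without a call when control library 3 or RNF6 siRNA library 3 was left out (adjusted p up to 0.0615). Those that rose were the transferase genes GSTZ1 (1.66-fold), GSTO2 (1.36-fold) and GSTA4 (1.76-fold), and CTH (1.67-fold), which makes cysteine from cystathionine. GSTA4 was not called without control library 2 or RNF6 siRNA library 2 or 3 (adjusted p up to 0.0658). GSR, glutathione reductase, had 312 ± 5.15 and 337 ± 7.12 CPM (adjusted p = 0.358), and GSS, glutathione synthetase, had 86.1 ± 7.78 and 70.4 ± 7.53 CPM (adjusted p = 0.0694, but 0.0117 without control library 1 and 0.0329 without RNF6 siRNA library 1). Without control library 1, 15 genes of the list were lower, and without RNF6 siRNA library 3, 4 were.

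In the thioredoxin and peroxiredoxin list 6 of 19 tested genes were higher and 6 lower (median log2 fold change −0.07). The shares over all tested genes were 16.6% higher and 16.1% lower. PRDX4, the peroxiredoxin of the endoplasmic reticulum, rose 2.56-fold, from 51.2 ± 3.41 to 131 ± 12.9 CPM (adjusted p = 3.61e-06). MSRB3 rose 1.70-fold, and the sestrin genes SESN1 and SESN2 rose 1.38-fold and 1.43-fold. MSRA, a methionine sulfoxide reductase, fell 2.25-fold, NXN 1.41-fold, PRDX5 1.44-fold, MSRB1 1.37-fold and TXN2, mitochondrial thioredoxin, 1.33-fold. PRDX5, whose libraries overlapped between the groups, was not called without RNF6 siRNA library 2 or 3 (adjusted p up to 0.0648), nor were MSRB1 and TXN2 without any of these or control library 3 (up to 0.0655 and 0.0527). PRDX1 had 1503 ± 205 and 1615 ± 134 CPM (adjusted p = 0.526), and TXNRD2 15.2 ± 2.35 and 16.6 ± 2.54 CPM (adjusted p = 0.560). TXNIP, the inhibitor of thioredoxin, was below 1 CPM in every library and was not tested. Without RNF6 siRNA library 2 or 3, 2 genes of the list were lower, and without control library 3, 3 were.

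Among the superoxide dismutases, catalase and NADPH oxidases, 4 of 7 tested genes were higher and 0 lower (median log2 fold change 0.30). The shares over all tested genes were 16.6% higher and 16.1% lower. CCS, the copper chaperone of SOD1, and the oxidase activator gene NOXA1 rose 1.53-fold each. CAT, catalase, rose 1.25-fold and SOD2, the mitochondrial dismutase, 1.23-fold. SOD2 exons overlap those of neighbouring genes in GENCODE 29, so its level is uncertain. CAT lost its call without control library 1 or 3 or RNF6 siRNA library 2 or 3, SOD2 in 5 of the 6 cases of leaving a library out, and both with no filter on low counts (adjusted p up to 0.104 and 0.108 when a library was left out). Without control library 3, or RNF6 siRNA library 2 or 3, 2 genes of the list were higher. SOD1 had 364 ± 33.3 and 332 ± 22.3 CPM (adjusted p = 0.343).

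In haem breakdown and iron handling, 2 of 13 tested genes were higher and 0 lower (median log2 fold change 0.04). The shares over all tested genes were 16.6% higher and 16.1% lower. FECH, whose enzyme inserts iron to form haem, rose 1.41-fold, and the transferrin receptor gene TFRC 1.27-fold. TFRC was not called when control library 2 or 3 or RNF6 siRNA library 2 or 3 was left out (adjusted p up to 0.191). It was not called with no scaling factor either. HMOX2, the constitutive haem oxygenase, had 63.8 ± 6.92 and 56.0 ± 5.44 CPM (adjusted p = 0.243). The ferritin genes FTL (1905 ± 394 and 2461 ± 251 CPM, adjusted p = 0.0595) and FTH1 (440 ± 119.5 and 355 ± 39.9 CPM, adjusted p = 0.1745) did not pass. FTL passed without control library 2 (0.00274), with no scaling factor (0.0471), with no filter (0.00952) and by DESeq2 (0.0483) and limma-voom (0.0445), and FTH1 passed lower without control library 1 (2.60e-04) and with no filter (0.0285). With no filter or by limma-voom 4 genes of the list were higher, and 1 was without control library 3 or RNF6 siRNA library 2 or 3. Both ferritin genes have many processed pseudogenes, and 62.4% of the FTH1 exon bases lie under other exons, so their levels are uncertain.

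**Figure D4:**
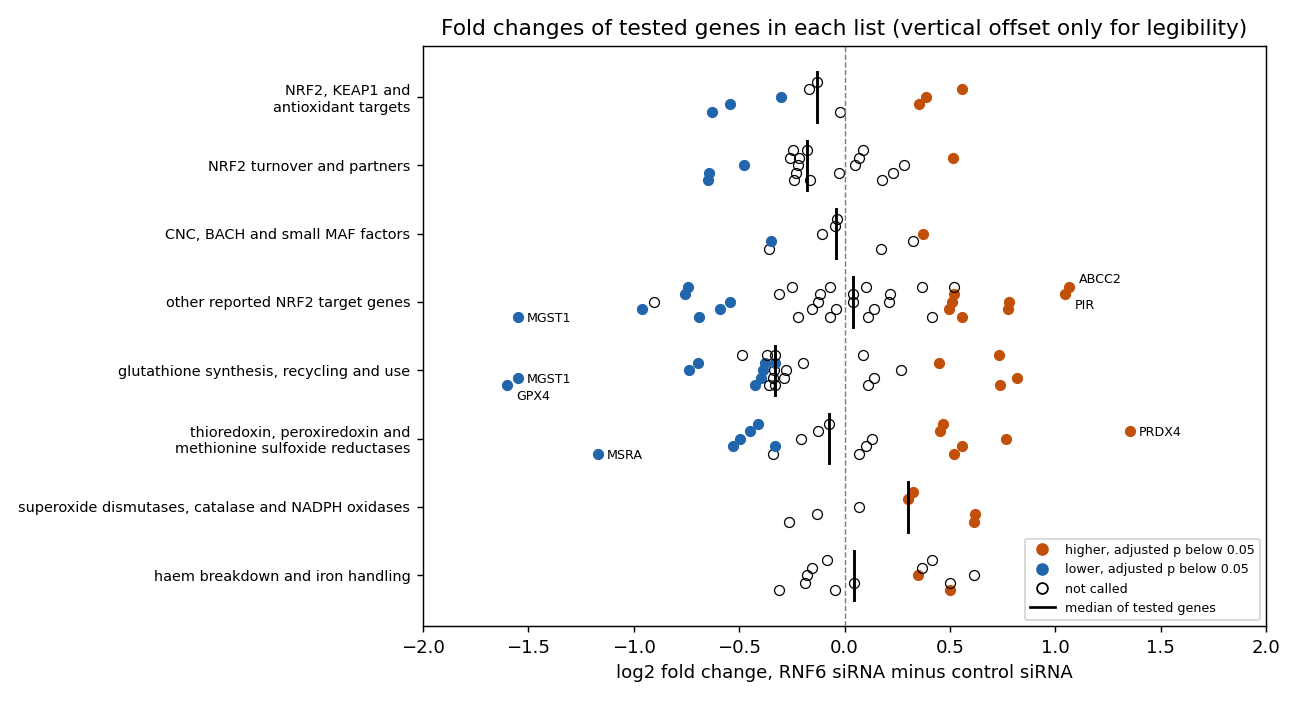
Log2 fold change (RNF6 siRNA minus control siRNA, horizontal axis) of every tested gene in the 10-gene group and 7 functional lists, coloured by call, with the median of each list as a bar. Most lists hold genes called in both directions, and the names mark genes beyond 1 on the log2 scale; a gene can stand in more than 1 list.

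The genes whose pattern over the 6 libraries was most like that of NFE2L2, among tested genes averaging 5 CPM or more, were TXNDC15 (Pearson r of log2 CPM 0.998), RAD23B (0.993), DDI2 (0.992) and AAK1 (0.986). A correlation takes no account of the size of a change. NFE2L2 ran only from 128 to 138 CPM over the libraries, and AAK1 from 6.36 to 16.5 CPM. The likeness is a description over 6 libraries that share their depth and scaling with NFE2L2. None of these 4 was called.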

How the data were processed

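The authors deposited 1 table of raw read counts per gene symbol for each of the 6 libraries. Per the submitters' processing notes, TopHat2 2.0.11, HTSeq and the builds hg19 and GRCh37 were used; for annotation release and strand setting the sources used here give nothing, so reads of antisense partners cannot be told apart. HTSeq rows for unassigned reads (27.3% to 29.4% of a library, of which 8.27% to 9.11% of the library were ambiguous) entered neither library sizes nor tests. Counts were fitted in R 4.3.3 with edgeR 4.0.16 (filterByExpr with minimum count 10 and minimum total 15, TMM, robust quasi-likelihood test with the group as its only term, two-sided), adjusted by Benjamini-Hochberg over 14685 genes. The script was tested on simulated data. CPM use all gene reads and the TMM factors. Log2 fold changes have a prior count of 0.125, and intervals of 95% use the moderated degrees of freedom. The 13 alternatives used other scalings, no filter, DESeq2 1.42.0, limma-voom (limma 3.58.1), a replicate block or 1 library fewer. The genes and lists were chosen with earlier results of these data known. The 10 genes, 22 pathway genes and, per list, up to 4 further called genes per direction with the smallest adjusted p are named, with the most abundant gene of each marker list and the 5 genes most like NFE2L2. A few genes that this rule names are not reported here.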

Additional observations from a re-analysis of the deposited data

How the results depend on the processing

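Of 117 log2 fold changes of the 9 tested genes over 13 alternatives, 98 kept their side of the threshold, 19 lost the call and 0 changed direction. Genes called higher, 3 in the main analysis, ran from 0 to 3 of the group when 1 library was left out (0 without control replicate 3 or RNF6 siRNA replicate 2, 1 without RNF6 siRNA replicate 3); the 3 called lower ran from 2 to 3. Over all tested genes, leaving out 1 library gave 1514 to 2910 higher and 1478 to 2967 lower, against 2442 and 2364. The replicate numbers of the titles were used as a replicate block: 1421 genes were then higher and 1321 lower, and of the 10 genes 1 was higher (NQO1) and 2 were lower. The block also ended the calls of GSK3A, AMER1, NFE2L1, NFE2L3, GLRX5, GSTA4, PRDX5, MSRB1, TXN2, CAT, SOD2 and TFRC. With it 4 genes of the glutathione list and 2 of the thioredoxin and peroxiredoxin list were lower. In the list of dismutases, catalase and oxidases 2 were higher. The labels do not say that the replicate numbers mark a shared batch. Deviations from the group means correlated at −0.500, −0.283 and 0.0567 between same-numbered libraries, and 0 of 3 control libraries correlated best with their own number. With 3 libraries per group these correlations cannot decide whether the numbers pair the samples. The scalings moved the median log2 fold change of all genes by less than 0.1. SRXN1 had 4 to 14 reads a library, too few for a test, and the cause of its low count was not tested.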
